A study of Rapana venosa with 9 samples.

Results

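The miR-71 and miR-2 families of the rapa whelk, *Rapana venosa*, were followed across larval life and metamorphosis in small RNA libraries. The members were every reference in the miRNA count table whose name begins with miR-71-, miR-2- or miR-13-, which gave 6 of 918 references (miR-71-x, miR-71-y, miR-2-y, miR-2-x, miR-13-y and miR-13-x). The series holds 9 libraries, 3 from precompetent larvae (Pre-CL, 3 spiral whorls), 3 from competent larvae (CL, 4 spiral whorls, ready to settle) and 3 from postlarvae (PL, the juvenile stage after metamorphosis). The animals were reared from wild parents, with no treatment named, and planktonic larvae were fed on microalgae. The sources describe each replicate as 40 to 100 individuals but also name the intestine of an individual as the source of RNA, so what each library holds is not settled, and p-values measure the spread between these libraries only. In such bulk samples, fewer cells of a type and less RNA per cell cannot be told apart.

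MicroRNAs are short RNAs that pair with messenger RNAs, mainly through the seed near their 5′ end, and lower the stability or translation of the message. miR-71 is an old bilaterian miRNA that vertebrates have lost, and in *Caenorhabditis elegans* it is known for extending lifespan. The miR-2 family, which includes miR-13, belongs to protostomes, and in many of them its genes lie together with the miR-71 gene. In *Drosophila melanogaster* the miR-2 and miR-13 miRNAs repress proapoptotic genes, and in the cockroach *Blattella germanica* the family acts in metamorphosis through the juvenile hormone pathway. Whether the 2 families are neighbours in the genome of the rapa whelk was not analysed here.

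The 6 reference sequences are shown because miRNAs with the same seed can share targets. They are the references of the deposited table, written 5′ to 3′ in lower case, and the capitals mark the seed, bases 2 to 8.
miR-71-x: tGAAAGACatgggtagtgagatc
miR-71-y: tCTCACTActctgtcttttgcg
miR-2-y: tATCACAGcctgcttggatgagc
miR-13-y: tATCACAGcctcttggatgagc
miR-2-x: tCGTCAAGgtggttgtgactt
miR-13-x: gCCTTTGAcgactgtgat
miR-2-y and miR-13-y shared 1 seed, and no other of the 918 references had it. The miR-13-y reference, of 22 nt, equals the miR-2-y reference, of 23 nt, with 1 base left out, at position 12 counted from the 5′ end. The seeds of miR-71-x, miR-71-y and miR-2-x each occurred in 1 reference, and that of miR-13-x occurred in 1 further reference, miR-3419-y, which had 2 counts in all. Tags were counted with up to 2 mismatches against 1 reference per family, so near-identical paralogs of miR-2 may be pooled in miR-2-y, and how tags that fit both miR-2-y and miR-13-y were divided is not given in the sources used here. The values of these 2 references are therefore uncertain relative to each other.

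The suffixes x and y are not explained in the labels. The references of each name were folded onto one another as an RNA duplex, a description added after the counts were seen. The 2 miR-71 references formed 19 base pairs with a minimum free energy of -26.90 kcal/mol, and the 2 miR-2 references formed 17 base pairs at -20.70 kcal/mol. The miR-13 references formed 12 base pairs at -11.00 kcal/mol.

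Between 3762511 and 6781384 counts per library fell on miRNA references. Pre-CL replicate 3 stood apart from its group. Of 214 miRNAs that passed the filter on low counts, 58 (27.1%) lay over 2-fold from the mean of the other 2 Pre-CL libraries, against 15 to 39 in each of the other 8 libraries, and 14.5% of its reads were under 18 nt, against 4.29% and 4.30% in the other Pre-CL libraries. Values without this library are given beside the results of miR-2-y, miR-13-y and the ratios.

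The share of miRNA also differed between PL and larvae, and the share of short reads between PL and CL. Reads under 18 nt made up 19.0%, 11.53% and 9.002% in the PL libraries and 5.46% to 6.26% in the CL libraries. Reads on known miRNAs made up 46.0% to 54.5% of clean reads in PL and 58.1% to 67.4% in the 6 larval libraries. The share of short reads in Pre-CL replicate 3, 14.5%, lay above those of PL replicates 2 and 3. Only the share of miRNA moved with the differences between PL and all larvae described here. The part of either share in those differences was not tested. Without PL replicate 1, which had the most short reads, miR-71-x stayed called, at a log2 fold change of -1.60 between PL and CL and of -1.93 between PL and Pre-CL. The remaining PL libraries still had more short reads than every CL library, so this is no test of the part of short reads.

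miR-71-x and miR-2-y carried nearly all reads of the 6 members, between 99.98% and 99.99% in every library. miR-71-x ranked 1 among all references in Pre-CL replicate 1 and 2 in the other 5 larval libraries, and 5, 8 and 9 in the 3 PL libraries. miR-2-y ranked 10, 7 and 13 in the Pre-CL libraries, 18, 17 and 17 in the CL libraries and 15, 14 and 13 in the PL libraries. The abundant members were therefore among the 18 most counted references at each stage, but miR-71-x moved down in PL and miR-2-y was lowest in rank in CL.

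The first question was how large a part of the miRNA counts the members took at each stage. miR-71-x held 12.7%, 11.2% and 12.02% of the miRNA counts in the Pre-CL libraries, 9.89%, 9.24% and 9.66% in the CL libraries and 5.70%, 4.98% and 4.20% in the PL libraries. The 3 stages did not overlap, and the share was lower at each later stage. The 95% Wilson interval of the first of these values ran from 12.62% to 12.68%, so counting error was small beside the spread between libraries, and such intervals cover counting error only. The mean share of miR-71-x was 11.9% ± 0.75 in Pre-CL, 9.60% ± 0.33 in CL and 4.96% ± 0.75 in PL (SD, n = 3 each, two-sided exact permutation p = 0.1 for each pair of stages). This is the smallest p that 3 libraries against 3 can give, and adjusted over the 9 comparisons of shares it was 0.129.

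miR-2-y showed another course. It held 4.14%, 4.97% and 1.87% of the miRNA counts in the Pre-CL libraries, 1.90%, 1.85% and 2.12% in the CL libraries and 2.22%, 2.31% and 2.41% in the PL libraries. Pre-CL replicate 3 lay within the range of CL, whereas the other 2 Pre-CL libraries lay above every CL and PL library. The PL libraries all lay above the CL libraries, with a mean share of 2.31% ± 0.09 in PL and 1.95% ± 0.15 in CL (SD, n = 3 each, two-sided exact permutation p = 0.1, adjusted p = 0.129). The comparisons of PL and of CL with Pre-CL gave exact permutation p of 0.4 and 0.3. Without Pre-CL replicate 3 the difference from Pre-CL was -2.24 percentage points for PL and -2.6 percentage points for CL, against -1.34 and -1.70 percentage points with all libraries. Without Pre-CL replicate 2 these differences were -0.69 and -1.05 percentage points. As a share of all clean reads rather than of miRNA counts, the difference of miR-2-y between PL and CL was -0.0425 percentage points, so the direction between PL and CL depended on the denominator.

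Together the 6 members took 16.8%, 16.1% and 13.9% of the miRNA counts in Pre-CL, 11.8%, 11.1% and 11.8% in CL and 7.92%, 7.29% and 6.61% in PL. The stages did not overlap, and the summed share averaged 15.6% ± 1.5 in Pre-CL, 11.6% ± 0.40 in CL and 7.28% ± 0.66 in PL (SD, n = 3 each, two-sided exact permutation p = 0.1 for each pair). The difference of the summed share was -4.28 percentage points between PL and CL and -4.05 percentage points between CL and Pre-CL, or -4.9 percentage points without Pre-CL replicate 3.

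**Figure D1:**
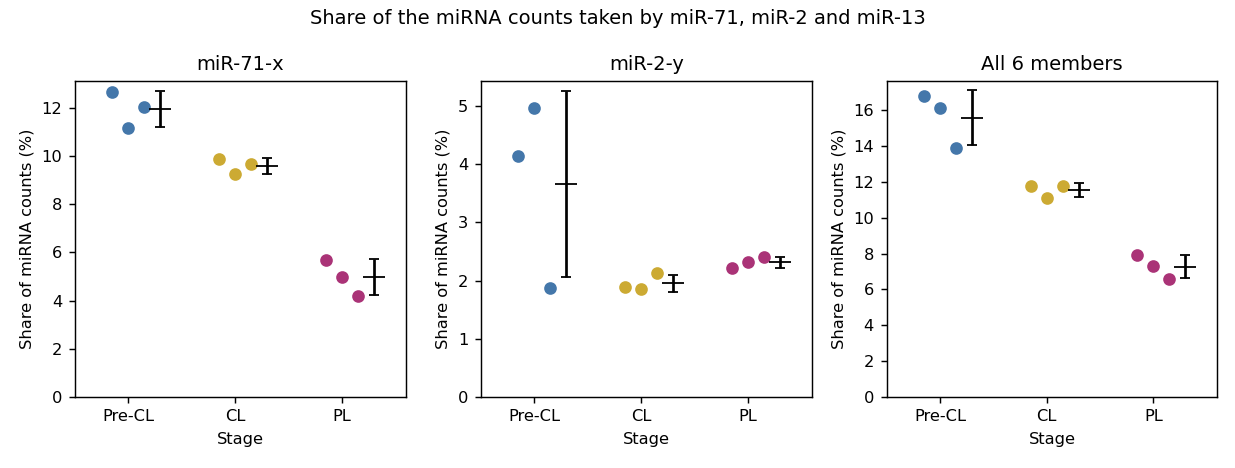
Share of all miRNA counts (%, y axis from 0) taken by miR-71-x, by miR-2-y and by the 6 members together in Pre-CL, CL and PL. Points are libraries in the order of their replicate numbers, and the black mark beside them is the mean with SD (n = 3). The miR-71-x shares of the 3 stages do not overlap, and the miR-2-y share of Pre-CL replicate 3, 1.87%, lies with the CL libraries.

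A share depends on all other miRNAs in the library, so levels were also compared after TMM scaling, which sets the libraries against the bulk of miRNAs that change least. TMM-scaled levels are in CPM (counts for every 1000000 counts of the scaled library). A miRNA was called when its adjusted p in edgeR was under 0.05 and its fold change over 2. The scaling matters here, because the TMM factors were 1.15 to 1.50 in PL and 0.733 to 1.005 in larvae. Scaling to total miRNA counts in place of TMM moved the median log2 fold change of all tested miRNAs between PL and CL to 0.79 against 0.20, and between PL and Pre-CL to 0.63 against 0.06. It also moved the calls between PL and CL to 76 higher and 17 lower, against 48 higher and 31 lower with TMM, and those between PL and Pre-CL to 81 higher and 31 lower, against 61 higher and 47 lower.

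Of the 6 members, 4 passed the filter and were tested. Between PL and Pre-CL all 4 tested members were called lower, between PL and CL 2 of 4 were called lower (miR-71-x and miR-71-y), and between CL and Pre-CL 1 of 4 was called lower (miR-13-y). Among the 214 miRNAs tested, 22.0% were called lower and 28.5% higher between PL and Pre-CL, 14.5% lower and 22.4% higher between PL and CL, and 9.35% lower and 10.3% higher between CL and Pre-CL. The median log2 fold change of the 4 members was -1.62, -0.85 and -0.73 in these comparisons, against 0.06, 0.20 and -0.29 for all 214. With total miRNA counts as library size, 2 of 4 members were called lower between PL and Pre-CL, none lower and 1 higher (miR-13-y) between PL and CL, and 1 lower between CL and Pre-CL.

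miR-71-x, the abundant form of miR-71, measured 144645, 111011 and 163954 CPM in Pre-CL, 99156, 117069 and 111812 CPM in CL and 42948, 33270 and 36633 CPM in PL. Every PL library lay below every larval library, while CL and Pre-CL overlapped. miR-71-x averaged 139870 ± 26793 CPM in Pre-CL, 109346 ± 9208 CPM in CL and 37617 ± 4914 CPM in PL (SD, n = 3 each). It fell in PL relative to CL by 1.54 on the log2 scale (SE 0.19, adjusted p = 0.000382, edgeR), or 2.91-fold. The log2 fold change between PL and Pre-CL was -1.89 (SE 0.19, adjusted p = 0.000101, edgeR), or 3.72-fold lower.

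Between the 2 larval stages the TMM-scaled level of miR-71-x did not pass the test, with a log2 fold change of -0.36 between CL and Pre-CL (SE 0.19, adjusted p = 0.22, edgeR). Scaled to total miRNA counts, the change between PL and CL was -0.95, just under the limit of 2-fold, and was not called. With TMM the median of all 214 tested miRNAs in this comparison was 0.20, and with total miRNA counts it was 0.79.

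miR-71-y, the rare form, had counts of 33, 35 and 32 in Pre-CL, 21, 17 and 29 in CL and 9, 7 and 14 in PL. In TMM-scaled units these were 6.17, 5.63 and 7.40 CPM in Pre-CL, 3.11, 3.22 and 6.54 CPM in CL and 1.80, 0.93 and 2.22 CPM in PL. In these units all PL libraries lay below all larval libraries, as for miR-71-x, and CL replicate 3 lay within the Pre-CL range. As a share of miRNA counts, PL replicate 3 and CL replicate 2 were nearly equal, both at 0.000254%. The log2 fold change was -1.95 between PL and Pre-CL (SE 0.47, adjusted p = 0.0058, edgeR) and -1.37 between PL and CL (SE 0.46, adjusted p = 0.040, edgeR). Between CL and Pre-CL it was -0.58 (SE 0.44, adjusted p = 0.39, edgeR).

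The call of miR-71-y between PL and CL was lost when any 1 library of CL, or PL replicate 1 or 2, was left out, with log2 fold changes of -0.87 without CL replicate 3 and of -1.56 to -1.05 without each of the others. It was also lost with total miRNA counts as library size (-0.82), in limma (-0.66) and with no filter on low counts (-1.43). miR-71-y had 42.7, 50.7 and 45.1 counts for every 1000000 miR-71-x counts in Pre-CL, 31.3, 27.5 and 58.5 in CL and 41.9, 28.0 and 60.5 in PL. The stages overlapped in this ratio. The ratio was not tested, because 2 PL libraries had under 10 counts of miR-71-y.

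miR-2-y, the abundant member of the miR-2 family, measured 47285, 49428 and 25528 CPM in Pre-CL, 19014, 23386 and 24550 CPM in CL and 16729, 15464 and 20982 CPM in PL. Pre-CL replicate 3 lay only just above the highest CL library, and the other 2 Pre-CL libraries were close to each other at nearly 2-fold higher. CL and PL overlapped. miR-2-y averaged 40747 ± 13223 CPM in Pre-CL, 22317 ± 2919 CPM in CL and 17725 ± 2891 CPM in PL (SD, n = 3 each).

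miR-2-y fell in PL relative to Pre-CL by 1.20 on the log2 scale (SE 0.27, adjusted p = 0.0040, edgeR), or 2.30-fold. This call was lost with total miRNA counts as library size (-0.66) and in limma (-0.94). Between CL and Pre-CL the log2 fold change was -0.87 (SE 0.26, adjusted p = 0.042, edgeR), under the limit of 2-fold. Without Pre-CL replicate 3 this change was -1.14 and was called, and the change between PL and Pre-CL was -1.46 and stayed called. Without Pre-CL replicate 2 the change between PL and Pre-CL was -0.85, under the limit of 2-fold.

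Between PL and CL miR-2-y did not pass the test, with a log2 fold change of -0.33 (SE 0.26, adjusted p = 0.33, edgeR), which turned to 0.24 when libraries were scaled to total miRNA counts. The order of CL and PL was therefore not resolved for miR-2-y.

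miR-13-y, which has the seed of miR-2-y, had counts of 122, 132 and 40 in Pre-CL, 25, 19 and 16 in CL and 35, 63 and 35 in PL. In TMM-scaled units these were 22.8, 21.2 and 9.25 CPM in Pre-CL, 3.70, 3.59 and 3.61 CPM in CL and 7.01, 8.37 and 5.54 CPM in PL. In these units the stages did not overlap, with CL lowest, PL between and Pre-CL highest, and Pre-CL replicate 3 was again the lowest of its group. As a share of miRNA counts, Pre-CL and PL overlapped. Pre-CL replicate 3, at 0.000678%, lay below PL replicates 1 (0.000930%) and 2 (0.00125%) and above PL replicate 3 (0.000636%). miR-13-y fell in CL relative to Pre-CL by 2.28 on the log2 scale (SE 0.41, adjusted p = 0.0051, edgeR), or 4.87-fold, and by 2.62 without Pre-CL replicate 3. With TMM this was the largest change of the 4 tested members in the 3 comparisons.

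Between PL and CL the log2 fold change of miR-13-y was 0.94 (SE 0.40, adjusted p = 0.092, edgeR), and with total miRNA counts as library size it was 1.54 and was called. Between PL and Pre-CL it was -1.35 (SE 0.39, adjusted p = 0.016, edgeR). That call was lost without Pre-CL replicate 1 (-1.13) or 2 (-1.01), and without PL replicate 1 (-1.30) or 3 (-1.23). It was also lost with total miRNA counts (-0.77) or clean reads (-1.16) as library size, in limma (-0.92) and with no filter on low counts (-1.29). Without Pre-CL replicate 3 it was kept, at -1.67.

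miR-2-x and miR-13-x were too rare to be tested. miR-2-x had 12, 18 and 0 counts in Pre-CL, 7, 6 and 0 in CL and 2, 0 and 4 in PL. Libraries at 0 occurred in each stage, and 0 counts allow up to 3 counts, which is 0.69 CPM in Pre-CL replicate 3, 0.68 CPM in CL replicate 3 and 0.40 CPM in PL replicate 2. miR-13-x had 3 counts in all, in CL replicate 2. Summed over the 3 libraries of a stage, miR-2-x had 30 counts in Pre-CL, 13 in CL and 6 in PL, and no difference was tested for either reference.

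**Figure D2:**
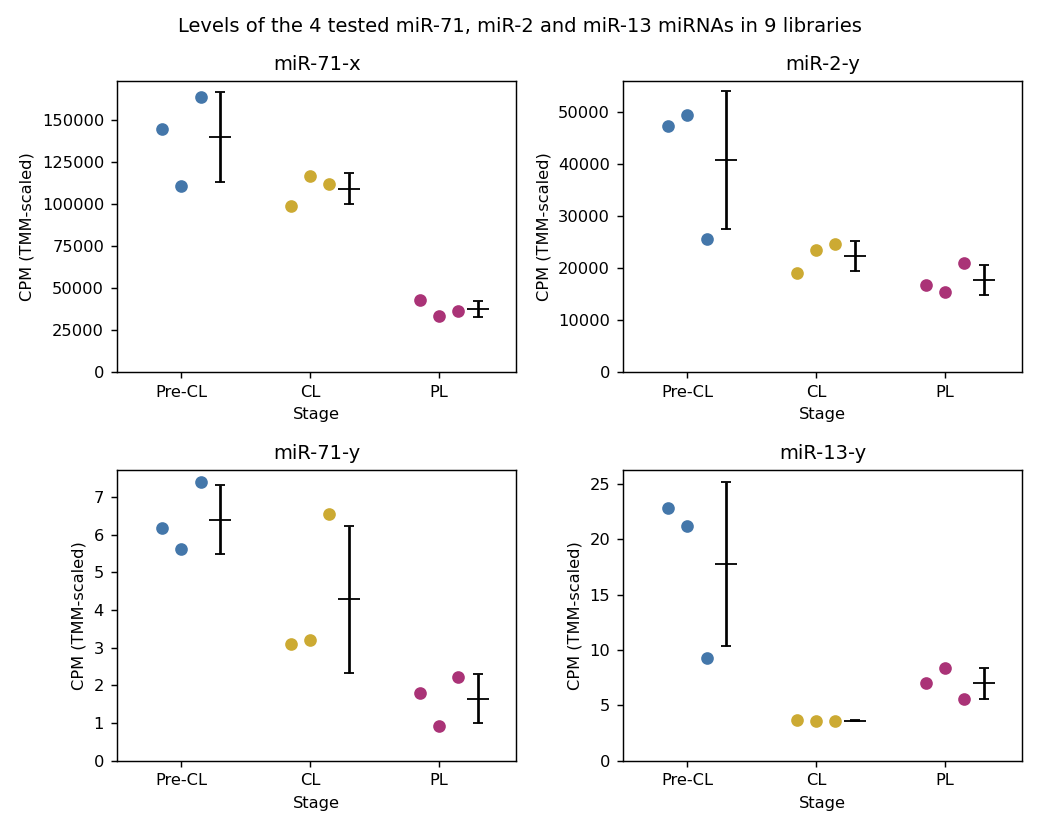
TMM-scaled level (CPM, each y axis from 0) of miR-71-x, miR-2-y, miR-71-y and miR-13-y in the 9 libraries. Points are libraries in the order of their replicate numbers, and the black mark is the mean with SD (n = 3). miR-71-x in PL lies between 33270 and 42948 CPM, below all larval libraries, and miR-13-y in CL lies between 3.59 and 3.70 CPM, below all others.

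**Figure D3:**
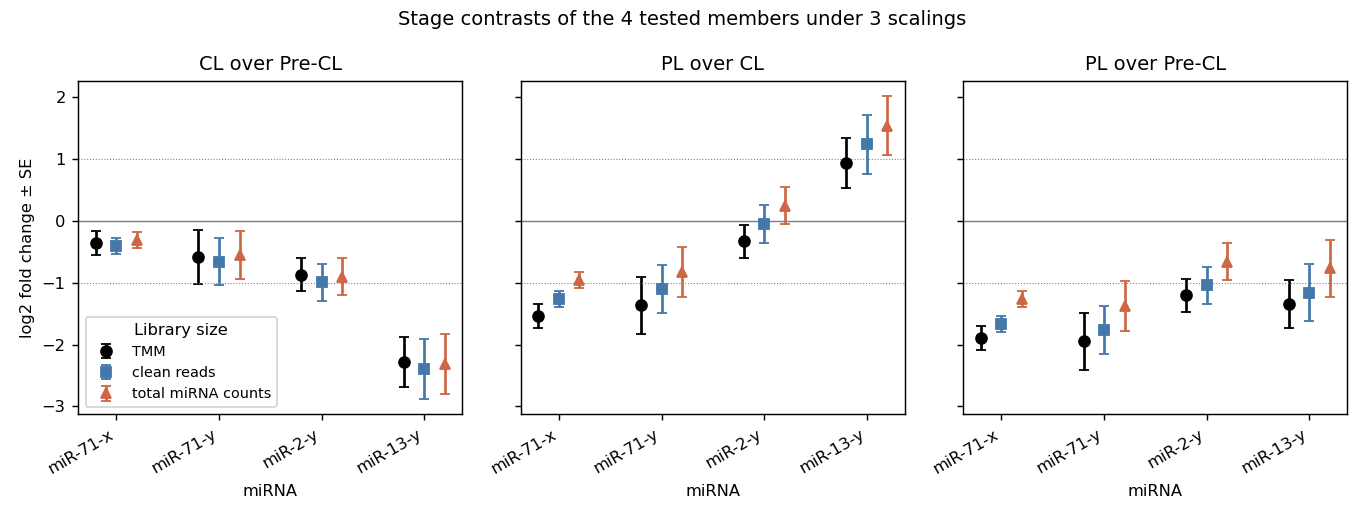
Log2 fold change with SE (y axis) of the 4 tested members in the 3 stage comparisons, with libraries scaled by TMM (circles), clean reads (squares) or total miRNA counts (triangles). Dotted lines mark 2-fold. Between PL and CL miR-2-y lies at -0.33, -0.05 and 0.24 under the 3 scalings, whereas miR-71-x lies at -1.54, -1.26 and -0.95.

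Ratios of 2 members within a library do not depend on the scaling, although a ratio of read counts is not a ratio of molecules. miR-71-x had 3.06, 2.25 and 6.42 counts for each miR-2-y count in Pre-CL, 5.21, 5.01 and 4.55 in CL and 2.57, 2.15 and 1.75 in PL. PL lay wholly below CL, and Pre-CL replicates 1 and 2 lay at or near the PL values while replicate 3 lay above CL. The log2 ratio averaged 1.09 ± 0.28 in PL and 2.30 ± 0.10 in CL (SD, n = 3 each), a difference of -1.21 (two-sided exact permutation p = 0.1, adjusted over 6 comparisons of ratios 0.2). Its mean in Pre-CL was 1.82 ± 0.78 (SD, n = 3).

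The difference of this log2 ratio between PL and Pre-CL was -0.73 (exact permutation p = 0.2) and between CL and Pre-CL 0.48 (exact permutation p = 0.4). Without Pre-CL replicate 3 these differences were -0.30 and 0.91, and without Pre-CL replicate 2 they were -1.06 and 0.15. Relative to miR-2-y, miR-71-x was thus higher in every CL than in every PL library, and the place of Pre-CL depended on which of its libraries were included.

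Within the miR-2 family, miR-13-y had 483, 429 and 362 counts for every 1000000 miR-2-y counts in Pre-CL, 194, 154 and 147 in CL and 419, 542 and 264 in PL. This ratio was added after the counts were seen. CL lay below both other stages, which overlapped, and Pre-CL replicate 3 lay near the other Pre-CL libraries. The log2 ratio differed by 1.26 between PL and CL and by -1.37 between CL and Pre-CL (two-sided exact permutation p = 0.1 for each, adjusted p = 0.2). Between PL and Pre-CL it differed by -0.11 (exact permutation p = 0.8). Without Pre-CL replicate 3 the difference was -1.47 between CL and Pre-CL and -0.218 between PL and Pre-CL.

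**Figure D4:**
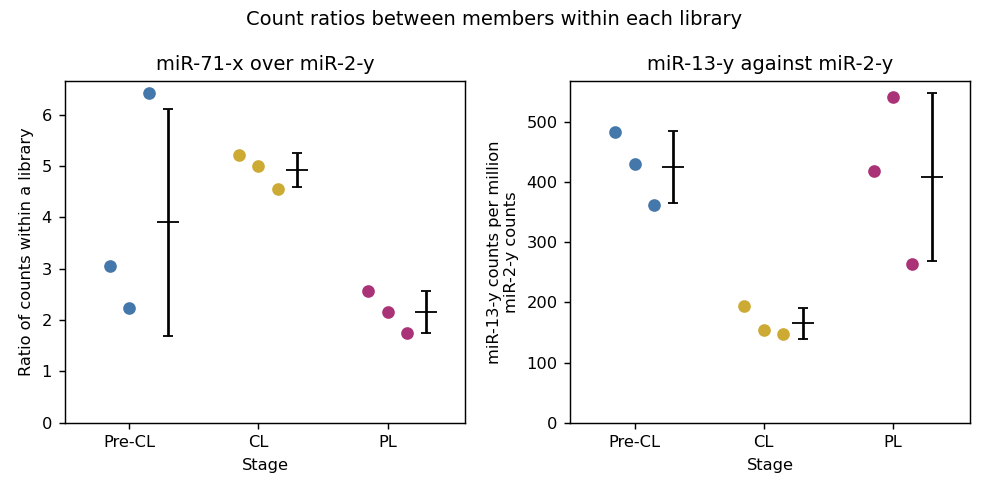
Ratio of miR-71-x to miR-2-y counts (left) and miR-13-y counts for every 1000000 miR-2-y counts (right) in each library, both y axes from 0. Points are libraries in the order of their replicate numbers, and the black mark is the mean with SD (n = 3). On the left PL lies between 1.75 and 2.57 and CL between 4.55 and 5.21, and on the right CL lies between 147 and 194, below all other libraries.

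Likeness of course was measured as the SD, over the 9 libraries, of the log2 ratio of counts of 2 miRNAs, which is free of scaling and is small where they keep a constant proportion. For miR-71-x, 120 other miRNAs with at least 10 counts in every library were compared. The closest was a miRNA predicted by the authors, with an SD of 0.25.
predicted miRNA: cTGTGGTTctggtgcttacta
It was far rarer than miR-71-x, at 39.5, 33.0 and 42.8 CPM in Pre-CL, 27.1, 37.8 and 32.3 CPM in CL and 9.41, 7.58 and 6.81 CPM in PL. miR-375-y (SD 0.32) and miR-96-x (SD 0.38) came next. miR-2-y ranked 21 with an SD of 0.67, and miR-13-y ranked 62 with an SD of 1.22, beside a median of 1.20 over the 120.

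For miR-2-y the closest were miR-34-x (SD 0.27), miR-92-y (SD 0.32) and miR-29-y (SD 0.35). miR-34-x measured 2391, 3520 and 1178 CPM in Pre-CL, 1516, 1824 and 1425 CPM in CL and 951, 932 and 1289 CPM in PL. As for miR-2-y, its Pre-CL replicate 3 was the lowest of its group. miR-71-x ranked 28 and miR-13-y ranked 35 of 120, with SDs of 0.67 and 0.72 beside a median of 0.93. Without Pre-CL replicate 3, miR-34-x was still the closest to miR-2-y (SD 0.23) and miR-71-x ranked 20 (SD 0.61). For miR-71-x, the predicted miRNA then ranked 2 (SD 0.27), miR-375-y ranked 5 and miR-96-x ranked 8. The closest was then miR-2478-y (SD 0.24), which was named after its values were seen. With or without this library, no other member that was ranked was among the 3 closest to miR-71-x or to miR-2-y. miR-71-y, miR-2-x and miR-13-x did not have 10 counts in every library and so could not be ranked. The miRNAs closest to miR-13-y were not ranked. These SDs are descriptions of libraries that share stages, and no test was made.

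As a background from other miRNA families of invertebrates, 14 references of bantam, miR-12, miR-76, miR-87, miR-277, miR-279, miR-317, miR-750, miR-1175 and miR-1993 were taken, of which 12 were tested. Between PL and Pre-CL 6 rose (miR-1175-y, miR-1175-x, miR-317-y, miR-277-y, miR-87-y and miR-1993-y), 2 fell (miR-12-x and miR-12-z) and 4 did not pass, and under either of the other 2 scalings 6 rose and 1 fell, with miR-12-z not called. Of those 4, miR-279-y (log2 fold change -0.88, adjusted p = 0.0040, edgeR) and miR-750-y (-0.75, adjusted p = 0.042, edgeR) were lower in PL but under the limit of 2-fold. The other 2, bantam-y (-0.03) and miR-76-y (1.91), did not reach an adjusted p under 0.05. Between PL and CL 3 rose (miR-1175-y, miR-1175-x and miR-317-y) and 9 did not pass, and under either of the other 2 scalings 6 rose. Between CL and Pre-CL 1 fell (miR-12-x) and 11 did not pass. Their median log2 fold change was 1.17 between PL and Pre-CL, where that of the 4 members was -1.62. Without Pre-CL replicate 3, 4 in place of 6 rose between PL and Pre-CL and 3 in place of 1 fell between CL and Pre-CL.

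Predicted target genes were taken from the table of miRNA and messenger pairs, in which expression is the authors' mean FPKM of each stage, a level scaled for gene length and depth, with no replicate values. The table lists pairs whose means run opposite over the stages, so the direction of the targets is fixed by their selection and is no result. The pairs analysed here belong to 3 members, and none of them belongs to miR-2-y, miR-2-x or miR-13-x. The paper chose its pairs from miRNAs it called differentially expressed, so absence here does not mean that a member has no predicted targets. miR-71-x had 243 target genes, miR-71-y had 103 and miR-13-y had 285, against a median of 121 over 195 miRNAs.

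The 243 targets of miR-71-x all had their mean lowest in Pre-CL and highest in PL, with medians of 3.95, 7.36 and 12.1 FPKM in Pre-CL, CL and PL. In 29 of them (11.9%) the PL mean was at least 10 times the Pre-CL mean, against 320 of 2419 (13.2%) of all target genes of the table that increase over the stages and reach 1 FPKM. The share was thus near that of the table as a whole. Of these 243 genes 80 were listed for miR-71-x alone.

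Swiss-Prot names were given for 65 of the miR-71-x targets. The most highly expressed was isopentenyl-diphosphate Delta-isomerase 1, an enzyme of isoprenoid synthesis, with means of 902, 1039 and 1143 FPKM in Pre-CL, CL and PL. Low-density lipoprotein receptor-related protein 4, a cell surface receptor, had means of 0.60, 175 and 847 FPKM. Monomeric sarcosine oxidase, which breaks down sarcosine, had means of 46.7, 77.7 and 389 FPKM. The first of these differed little between stages and the receptor by the most.

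Membrane metallo-endopeptidase-like 1, a membrane protease (0.28, 16.0 and 555 FPKM in Pre-CL, CL and PL), and cyclin-I, a cyclin family protein (76.8, 129 and 238 FPKM), complete the 5 named genes of highest expression. By name, 3 of 65 matched the list of digestive enzymes (4.62%), against 45 of 3967 named genes in the whole table (1.13%). The whole table includes genes of every course, whereas these 65 were selected to increase over the stages. The part of that selection in the difference was not tested. The matches were the metallo-endopeptidase, cathepsin Z, a lysosomal protease, and a beta-1,4-xylanase, which cuts plant xylan. Whether they act in digestion was not tested. A further 2 were proteins of cilia and cytoskeleton (3.08% against 3.73%), a myosin regulatory light chain and actin-related protein 2. From the list of extracellular matrix and shell, 1 matched (1.54% against 1.59%), an extracellular matrix protease of the ADAMTS group.

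The 103 targets of miR-71-y had medians of 4.01, 7.36 and 11.8 FPKM in Pre-CL, CL and PL, and 31 had a Swiss-Prot name. Ornithine decarboxylase antizyme 1, which restrains polyamine synthesis, had the highest means, at 334, 473 and 606 FPKM. Deoxyribonuclease-1, a DNA-degrading enzyme, had means of 0.05, 86.1 and 220 FPKM. The other 3 of the 5 most highly expressed were myosin-10, PiggyBac transposable element-derived protein 5 and ribosome biogenesis protein NSA2, which differed less between stages.

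Both miR-71 references had only targets that increase over the stages. The whole table held 2423 such genes, of which 243 were listed for miR-71-x, so some sharing would occur without any relation. miR-71-x and miR-71-y shared 14 target genes, which is 5.76% of the miR-71-x targets and 13.6% of the miR-71-y targets, and this overlap was not tested. Of the 14 shared genes, 7 had a name. Among them were 60 kDa SS-A/Ro ribonucleoprotein, granulins, NSA2, zinc finger protein Xfin, inositol oxygenase and PiggyBac transposable element-derived protein 5. miR-13-y shared no target gene with either miR-71 reference, and its targets were selected on another course over the stages.

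Of the 285 targets of miR-13-y, 284 had their highest mean in CL, with medians of 1.80, 7.11 and 4.08 FPKM in Pre-CL, CL and PL, and 83 had a name. V-type proton ATPase subunit E 1, part of the proton pump of acidic organelles, had means of 74.9, 114 and 80.3 FPKM. Troponin C, the calcium sensor of muscle, had means of 34.8, 85.8 and 47.4 FPKM. Putative universal stress protein SH1215, a small subunit of succinate dehydrogenase and clathrin light chain A were the other 3 of the 5 most highly expressed.

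By name, 7 of the 83 matched the list of extracellular matrix and shell (8.43%), against 63 of 3967 in the whole table (1.59%). The whole table includes genes of every course, whereas the miR-13-y targets were selected on a course with its peak in CL. The part of that selection in the difference was not tested. Among the 7 were collagen alpha-1(II) chain, a fibrillar collagen, with means of 21.5, 69.3 and 25.7 FPKM in Pre-CL, CL and PL, and cadherin-87A, an adhesion protein, with means of 9.87, 17.6 and 12.6 FPKM. Between these by expression was an Ig-like and fibronectin type-III domain protein. The list also took in adhesion proteins such as cadherin-87A, so the 7 are not all matrix or shell proteins. A further 2 were proteins of cilia and cytoskeleton (2.41% against 3.73%), kinesin heavy chain and dynein light chain roadblock-type 1. The epidermal growth factor receptor and a protein with multiple epidermal growth factor-like domains matched the list of nuclear receptors and signalling ligands (2.41% against 0.93%), although neither is a nuclear receptor or a ligand.

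No named target of the 3 members matched the lists for apoptosis (0 of 65, 31 and 83 for miR-71-x, miR-71-y and miR-13-y, against 29 of 3967 in the whole table), neural and synaptic proteins or ribosomal proteins. These counts rest on names matched by word and on a table of computed predictions, and no pair was tested.

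**Figure D5:**
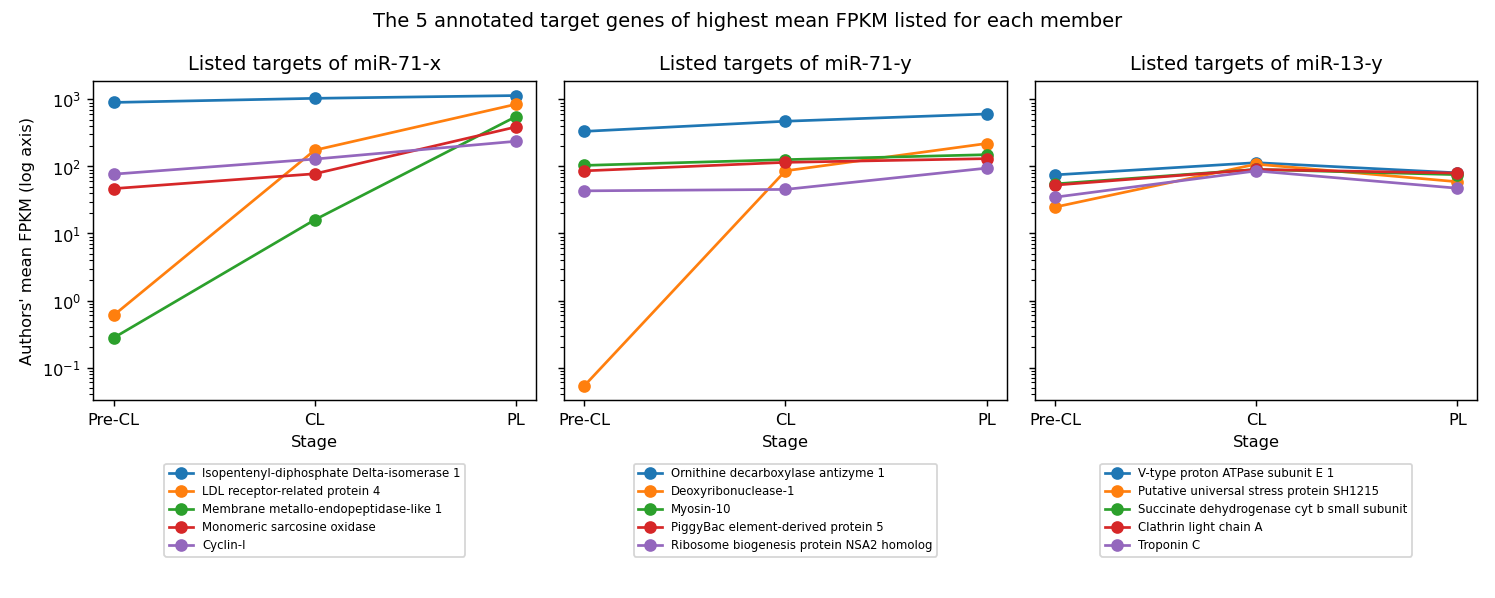
Authors' mean FPKM (log y axis) in Pre-CL, CL and PL of the 5 named target genes of highest mean listed for miR-71-x, miR-71-y and miR-13-y. Each line is 1 gene, with no replicate values, and the courses follow from how the pairs were selected. The widest ranges are those of deoxyribonuclease-1 (220 FPKM in PL and 0.05 FPKM in Pre-CL) and of the metallo-endopeptidase (555 FPKM in PL and 0.28 FPKM in Pre-CL).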

How the data were processed

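Small RNA of 18–30 nt was sequenced from 9 libraries. The deposited counts are the authors' whole-number tag counts per reference, made by aligning clean reads to miRBase v. 21.0 and then to the most abundant miRNA of each family with up to 2 mismatches, and further miRNAs were predicted with MIREAP. The deposited FPKM are the authors' stage means from an earlier transcriptome study. The authors' TPM, fold changes, p-values and correlation scores were not used, and 0 columns belonged to other samples.

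Counts were fitted over all 9 libraries with edgeR 4.0.16 in R 4.3.3 (TMM, filterByExpr by stage, quasi-likelihood test, Benjamini-Hochberg adjustment over 214 miRNAs), and SE was obtained by dividing the size of each log2 fold change by the root of its F statistic. The steps were tested on simulated data. Shares and ratios were compared by exact permutation in scipy 1.17.1, and duplexes folded with RNAduplex 2.7.2. Alternatives used DESeq2 1.42.0, limma 3.58.1 (pseudocount 1), other library sizes, no filter, 6 libraries, a replicate block, no fold limit and each library left out. The closest miRNAs without Pre-CL replicate 3 were added after seeing the data.

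Members and lists were chosen with earlier results of these data known. Named miRNAs were all members, references sharing a seed, the 3 closest to miR-71-x and miR-2-y, and the family list (references matched 10 of its 11 families). Named targets were, for each member, the 5 named genes of highest mean FPKM, shared targets, and up to 3 per keyword list matched at the start of a word.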

Additional observations from a re-analysis of the deposited data

How the results depend on the processing

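Of the alternatives that left no library out, 125 values kept their direction and call or stayed within the spread between replicates. A further 11 lost a call, 2 gained a call, 2 reversed in direction and 4 differences of shares moved. With 1 library left out, 177 values stayed in this sense, 10 lost a call, 1 gained a call and 1 number of calls moved. With total miRNA counts as library size, the log2 fold change between PL and CL was -0.95 for miR-71-x and -0.82 for miR-71-y (calls lost), 1.54 for miR-13-y (call gained) and 0.24 for miR-2-y (direction reversed), and between PL and Pre-CL it was -0.66 for miR-2-y and -0.77 for miR-13-y (calls lost). Clean reads as library size gave -1.16 for miR-13-y between PL and Pre-CL, and no filter gave -1.29 (calls lost). limma gave -0.94 for miR-2-y and -0.92 for miR-13-y between PL and Pre-CL and -0.66 for miR-71-y between PL and CL, and no filter gave -1.43 for miR-71-y (calls lost). With no limit on the fold change, miR-2-y was called between CL and Pre-CL at -0.87. As shares of clean reads, miR-71-x and all members differed by -3.52 and -3.56 percentage points between PL and CL and by -5.48 and -6.74 between PL and Pre-CL, and miR-2-y by -0.0425 between PL and CL (reversed). Beyond the scaling and the fold limit, the cause was not tested.

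With 1 library left out, the log2 fold change of miR-2-y ranged over -1.14 to -0.64 between CL and Pre-CL and -1.46 to -0.85 between PL and Pre-CL, that of miR-13-y between PL and Pre-CL over -1.67 to -1.01, and that of miR-71-y between PL and CL over -1.72 to -0.87. The number of miRNAs called between CL and Pre-CL ranged over 27 to 54, the lowest without CL replicate 2.

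Same-numbered libraries did not deviate together (r between -0.35 and 0.29 over 9 pairs), and libraries did not all correlate best with their own number. A replicate block gave 36, 68 and 105 calls between CL and Pre-CL, PL and CL, and PL and Pre-CL, against 42, 79 and 108, and -1.36 for miR-71-y between PL and CL (call lost), and it changed no other call of a member. Depth limits miR-71-y, miR-13-y, miR-2-x and miR-13-x, which had at most 132 counts in a library.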
